A study of Mus musculus with 24 samples.

Results

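The mitochondrial ribosome translates the few messages of the mitochondrial genome, all of which encode subunits of the oxidative phosphorylation chain. Its RNAs come from the mitochondrial genome, but its proteins are encoded in the nucleus, made on cytosolic ribosomes and imported. The proteins named MRPS mostly belong to the small subunit, which decodes the message, and those named MRPL to the large subunit, which forms peptide bonds. Some descend from bacterial ribosomal proteins and others were gained during the evolution of mitochondria. Neurons depend heavily on oxidative phosphorylation.

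The genes were chosen as the rows of the deposited count table whose symbol is MRPS or MRPL followed by a number and at most 1 letter from A to C, with a mean of at least 1 CPM (a read count put on the same total for each library) over all 24 libraries. Of 78 rows with such a name, 77 met the level (29 MRPS-named and 48 MRPL-named), out of 51733 rows in the table. Symbols are printed here in mouse style, where the table has capitals. The row below the level was Mrpl23 (mean 0.0155 CPM by total counts). The lowest rows above it were Mrpl33 at 1.16 CPM, Mrpl21 at 6.67 CPM and Mrps28 at 7.65 CPM. Each row carries 1 Ensembl transcript identifier, and 5 rows named as pseudogenes of this family held at most 0.104 CPM in any library. All 77 genes passed the filter on low counts in every comparison.

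The study pulled down ribosomes from hippocampi of adult male C57BL/6 mice, 2 to 3 months old, that express RiboTag, an HA-tagged ribosomal protein Rpl22 switched on by Cre. Cre was driven by the CaMKIIα promoter, which is active in forebrain excitatory neurons. The eIF2α cKI mice carry eIF2α with alanine in place of its phosphorylated serine on both alleles (A/A), and a floxed transgene of normal eIF2α (fTg) that Cre removes. The controls are labelled Standard CaMKIIα-Cre+, so Cre is shared by both genotypes. That label names neither the tag nor the eIF2α alleles and transgene of the controls, though IP libraries were made from both genotypes. Mice were naive or were taken 1 h after fear conditioning (pairing of a tone with a foot shock). The protocol describes a weak and a strong training, and which of them these mice had is not given in the sources used here. The hippocampi of each mouse were pooled, and each of 12 mice gave an input library from the whole lysate and an immunoprecipitate (IP) library, in 8 groups of 3 libraries.

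Total counts were 28.8 to 43.5 M per library, so that 1 count equalled 0.0347 CPM at the lowest depth, and no gene of the set was at 0 in any library. Levels below are CPM scaled by TMM, a method that assumes most genes do not differ between libraries. Excitatory neuron markers were higher in IP for 8 of 8 genes (median log2 fold change 1.06), and markers of inhibitory neurons (7 of 7), astrocytes (6 of 6), oligodendrocytes (6 of 6) and microglia (6 of 6) were lower. Dentate granule cell markers summed to 143 to 950 CPM in IP libraries and 365 to 453 CPM in inputs. The knock-in is a point mutation, which counts per gene do not show. Eif2s1, which encodes eIF2α, was higher in cKI by 0.28 on the log2 scale in inputs (35.1 to 40.8 against 29.9 to 33.4 CPM, adjusted p = 0.00243) and by 0.22 in IP (50.2 to 55.9 against 44.0 to 50.4 CPM, adjusted p = 0.0323, both edgeR, and 0.114 without the naive mice numbered 2 described below).

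Promoters of the genes are shown first, since some are shared with a neighbouring gene and some hold motifs of factors known to control mitochondrial genes. RefSeq promoter sequences (GRCm38.p6, 250 bases before to 50 after a start) matched 68 of the 77 genes. Of these 68 genes, 23 (33.8%) had a start on the opposite strand within 500 bases, facing away, against 16.4% of the tested genes with a promoter and 10.9% of all 27025 genes. In 1 pair both genes belong to the set. Mrpl46 and Mrps11, one protein of each subunit, start 42 bases apart. Mrpl43 starts 116 bases from Twnk, which encodes the helicase of mitochondrial DNA. Mrps12, whose product sits at the decoding centre, starts 147 bases from Sars2, which encodes mitochondrial seryl-tRNA synthetase. The stretches between these starts are printed on the strand of the ribosomal protein gene, with matches to CCGGAAG (bound by ETS factors such as GABPA, also called NRF2) in capitals:
Mrps11 and Mrpl46, chr7:78783090-78783130, plus strand: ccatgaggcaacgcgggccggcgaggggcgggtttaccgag
Mrpl43 and Twnk, chr19:45006443-45006557, minus strand: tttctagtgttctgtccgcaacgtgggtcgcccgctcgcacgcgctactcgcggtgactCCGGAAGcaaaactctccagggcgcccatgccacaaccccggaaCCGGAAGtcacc
Mrps12 and Sars2, chr7:28741822-28741967, minus strand: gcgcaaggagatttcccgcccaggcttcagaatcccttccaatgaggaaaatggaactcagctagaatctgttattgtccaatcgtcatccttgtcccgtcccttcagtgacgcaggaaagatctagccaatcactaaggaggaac

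The ETS motif CCGGAAG, searched on both strands, was found in the promoters of 26 of 68 genes (38.2%), against 17.2% of 12127 tested genes and 9.93% of all genes with a promoter. The motif GCGCATGCG of NRF1, a factor of mitochondrial biogenesis, was found for 7 genes (10.3%, against 3.65% and 1.95%). This motif is nearly its own reverse complement, so matches on the 2 strands can overlap. AAGATGGCG, a motif of YY1, was found for 8 genes (11.8%, against 3.02% and 1.64%), for 2 of them before the start. GGGCGG, the motif of the SP1 family, was found for 33 genes (48.5%, against 65.6% and 38.2%), and TATAAA for 5 (7.35%, against 9.17% and 15.7%). Motif matches are letters in a window and do not show binding. Stretches of 120 bases ending at the start follow for 4 genes, with ETS and NRF1 matches in capitals. Matches outside the printed bases are not seen, such as the ETS match of Mrpl17 at -237 to -231 from the start. The ETS match of Mrps12 lies after its start and so outside the stretch printed above. Mrpl53 is a gene among the highest in IP against input, Mrpl17 is among the lowest, Mrpl22 holds both motifs and Mrpl32 has 3 NRF1 matches, of which 2 overlap:
Mrpl53, chr6:83108988-83109107, plus strand: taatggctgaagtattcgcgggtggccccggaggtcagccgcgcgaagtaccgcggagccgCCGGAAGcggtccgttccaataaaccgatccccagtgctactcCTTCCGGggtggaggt
Mrpl22, chr11:58171544-58171663, plus strand: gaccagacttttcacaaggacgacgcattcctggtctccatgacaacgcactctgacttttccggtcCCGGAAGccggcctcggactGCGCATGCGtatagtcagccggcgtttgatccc
Mrpl32, chr13:14613038-14613157, minus strand: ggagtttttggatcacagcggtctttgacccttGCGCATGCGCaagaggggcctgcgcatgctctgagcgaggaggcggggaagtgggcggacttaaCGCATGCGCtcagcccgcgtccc
Mrpl17, chr7:105811088-105811207, minus strand: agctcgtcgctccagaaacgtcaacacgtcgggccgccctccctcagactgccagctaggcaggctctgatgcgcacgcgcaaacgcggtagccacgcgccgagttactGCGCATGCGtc

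**Figure D1:**
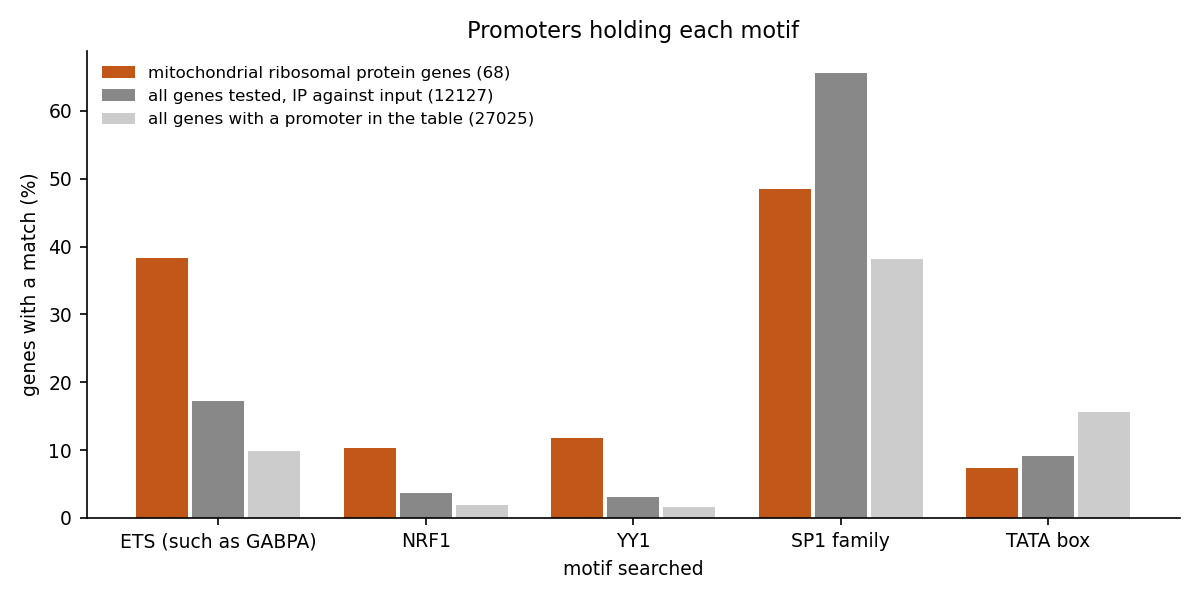
Bars give the percentage of genes with at least 1 match to each motif in a promoter of 300 bases, for the mitochondrial ribosomal protein genes, for all genes tested in IP against input and for all genes in the promoter table. The ETS bar of the ribosomal protein genes reaches 38.2%, against 17.2% of tested genes, while for the SP1 family it is the lower of the 2 (48.5% against 65.6%).

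The first comparison asked how these transcripts were distributed between ribosomes of Cre-positive cells and the whole hippocampus. With TMM scaling, 76 of 77 genes were higher in IP and 1, Mrpl33, was lower (edgeR quasi-likelihood test, Benjamini-Hochberg adjusted over 17453 genes, threshold 0.05). Among all tested genes 42.8% were higher and 43.1% lower. The median log2 fold change of the 77 genes was 0.53 (quartiles 0.39 and 0.65), against -0.01 over all tested genes. In 48 of the 77 genes every IP library lay above every input library, which held for 24.4% of all tested genes, and in 0 did every IP library lie below (23.4% of all tested genes). In bulk RNA, more cells of a type and more RNA per cell cannot be told apart.

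The size of the difference depended on the scaling. With library totals in place of TMM, the median of all genes fell by 0.31 to -0.31, and that of the 77 genes was 0.22. A change of scaling moves all genes by nearly the same amount, so the distance of the 77 genes from the median of all genes (0.54 with TMM, 0.53 with library totals) is nearly fixed by construction. Under library totals 56 of the genes were higher and 3 lower, 70 had a positive value, and the calls over all genes split into 4415 higher and 10295 lower, against 7473 and 7523 with TMM. The 3 lower genes were Mrpl33, Mrpl17 (log2 fold change -0.16, adjusted p = 0.000631 with edgeR) and Mrps5 (-0.08, adjusted p = 0.0156 with edgeR), and the last 2 were higher with TMM. Mrps24, Mrpl9, Mrps6 and Mrpl52 also had negative values under library totals but were not called. By library totals every IP library lay above every input library in 9 of the 77 genes, against 48 with TMM. The share of all tested genes that did so under library totals is not given here. Inputs were sequenced in lanes 4 and 5 and IP libraries in lanes 5 and 6. Only the naive control inputs and the conditioned cKI IP libraries were split between lanes, so lane terms rest on these groups. The shares of all genes called that are given above do not apply to the fit with lane. With lane as a covariate 70 genes were higher and 0 lower, and the calls of Mrpl9, Mrpl52, Mrpl17, Mrpl18, Mrps24, Mrps6 and Mrpl33 were lost (adjusted p = 0.332, 0.510, 0.116, 0.0605, 0.117, 0.112 and 0.838 in that order, edgeR).

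**Figure D2:**
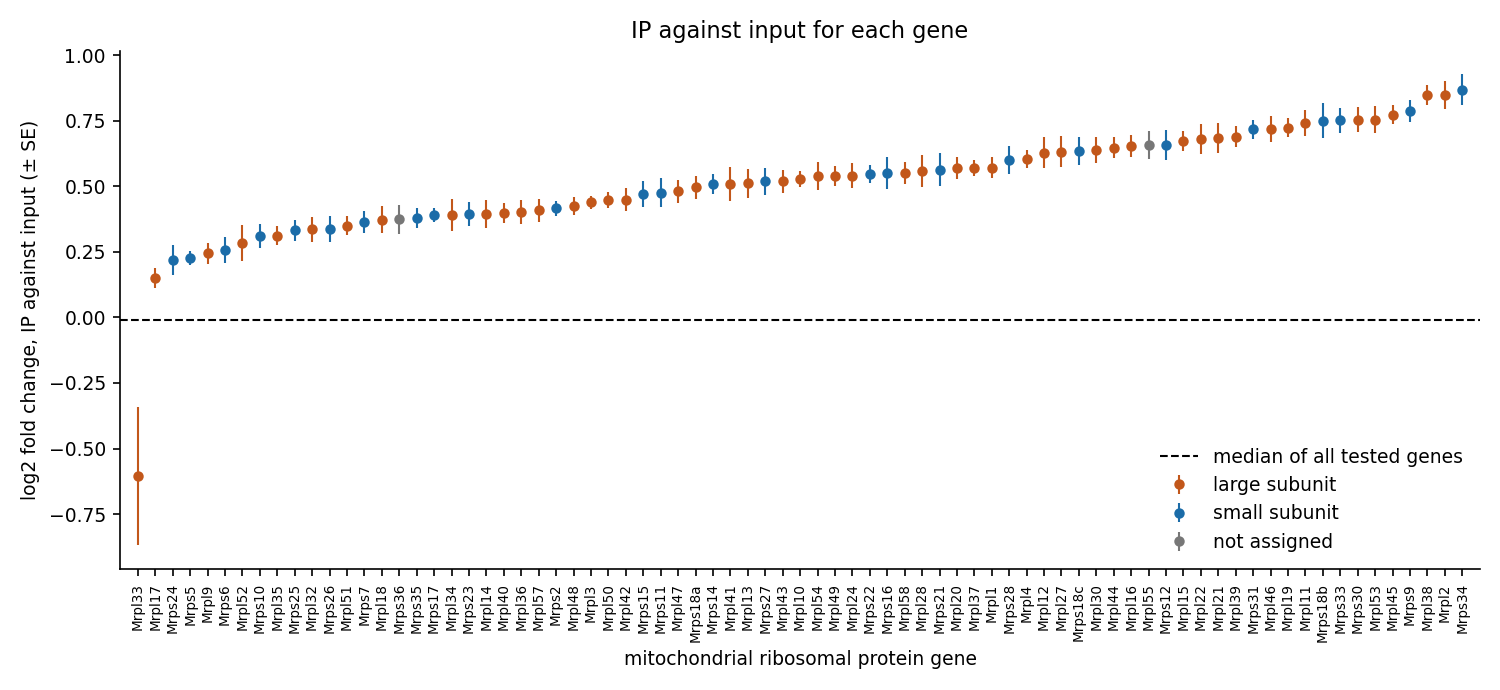
Each point is the log2 fold change of 1 gene in IP against input over 12 mice, with its standard error, ordered by value and coloured by subunit. Small and large subunit genes are interspersed from Mrpl17 at 0.15 to Mrps34 at 0.87, and Mrpl33 lies alone at -0.61.

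The subunits had similar medians. The 16 small subunit genes with a bacterial counterpart had a median log2 fold change of 0.47 and the 10 without one 0.53, all of them called higher. Of 28 large subunit genes with a bacterial counterpart, 27 were higher and 1 lower (median 0.55), and all 19 without one were higher (median 0.54). Mrps18a and Mrps30 carry S names but their products sit in the large subunit, and they had 0.50 and 0.75. Mrps18b and Mrps18c, the other relatives of bacterial S18, had 0.75 and 0.63. Mrps36, whose product is also known as a component of the 2-oxoglutarate dehydrogenase complex, had 0.37. The differences between these groups were not tested.

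In the small subunit, Mrps34, whose product stabilises that subunit, had the largest fold change of the set (0.87, SE 0.06, adjusted p = 3.78e-12 with edgeR). It ranged from 28.7 to 53.7 CPM in inputs (median 41.2) and from 66.7 to 90.2 CPM in IP libraries (median 71.5), with no overlap. Mrps9, a counterpart of bacterial S9, had 0.79, with 22.1 to 31.96 CPM in inputs and 40.8 to 51.3 CPM in IP. Mrps33, which has no bacterial counterpart, rose by 0.75 on the log2 scale. Mrps12 had 0.66, with inputs of 19.5 to 29.7 CPM all below the IP libraries of 31.7 to 41.7 CPM. With library totals in place of TMM, the fractions overlapped for Mrps34 and Mrps12. At the other end, Mrps24, Mrps5, Mrps6 and Mrps10 had 0.22, 0.23, 0.26 and 0.31, and in each of these 4 genes the ranges of the 2 fractions overlapped. The calls of Mrps24 and Mrps6 were lost with lane as a covariate, and that of Mrps5 turned with library totals, as given above.

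In the large subunit, Mrpl2, a counterpart of the bacterial L2 protein near the peptidyl transferase centre, had a log2 fold change of 0.85 (SE 0.05, adjusted p = 4.55e-13 with edgeR), with 20.8 to 31.5 CPM in inputs and 37.1 to 53.4 CPM in IP. Mrpl38, a mitochondria-specific protein of the central protuberance, also had 0.85, with 29.0 to 39.7 CPM in inputs and 51.4 to 62.0 CPM in IP. With TMM both genes separated the fractions completely, and with library totals Mrpl38 did so but Mrpl2 did not. Mrpl45, whose product lies at the exit tunnel and tethers the ribosome to the inner membrane, had 0.77, and Mrpl53 had 0.75. Mrpl12, which encodes a stalk protein that also binds the mitochondrial RNA polymerase, had 0.63 (26.6 to 40.5 CPM in inputs, 42.7 to 57.8 CPM in IP). Mrpl17, Mrpl9 and Mrpl52 were the lowest of those called higher, at 0.15, 0.24 and 0.28, and none of the 3 was called in the fit with lane. Mrpl17 lay at 24.0 to 30.3 CPM in inputs and 26.8 to 35.1 CPM in IP, and without naive cKI mouse 2 its adjusted p was 0.0704 (edgeR).

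Mrpl33, which encodes the counterpart of the small bacterial protein L33, was the gene lower in IP (log2 fold change -0.61, SE 0.26, adjusted p = 0.0375 with edgeR). Its row was also the lowest of the set, and whether it holds the counts of every transcript of the gene is not given in the sources used here, so the fold change is that of the row. In the naive controls the inputs held 2.31, 2.87 and 2.44 CPM and the IP libraries 1.56, 1.37 and 1.87 CPM. The other 9 mice had 0.527 to 1.56 CPM in inputs and 0.159 to 1.16 CPM in IP. The IP library was below the input of the same mouse in 11 of 12 mice. The call was lost when naive cKI mouse 1, conditioned cKI mouse 1 or 3, naive control mouse 1 or 2, or conditioned control mouse 1 or 2 was left out (adjusted p = 0.0501, 0.0505, 0.0512, 0.0575, 0.0853, 0.0520 and 0.0699 in that order, edgeR), and with lane as a covariate the value was 0.20 (adjusted p = 0.838).

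**Figure D3:**
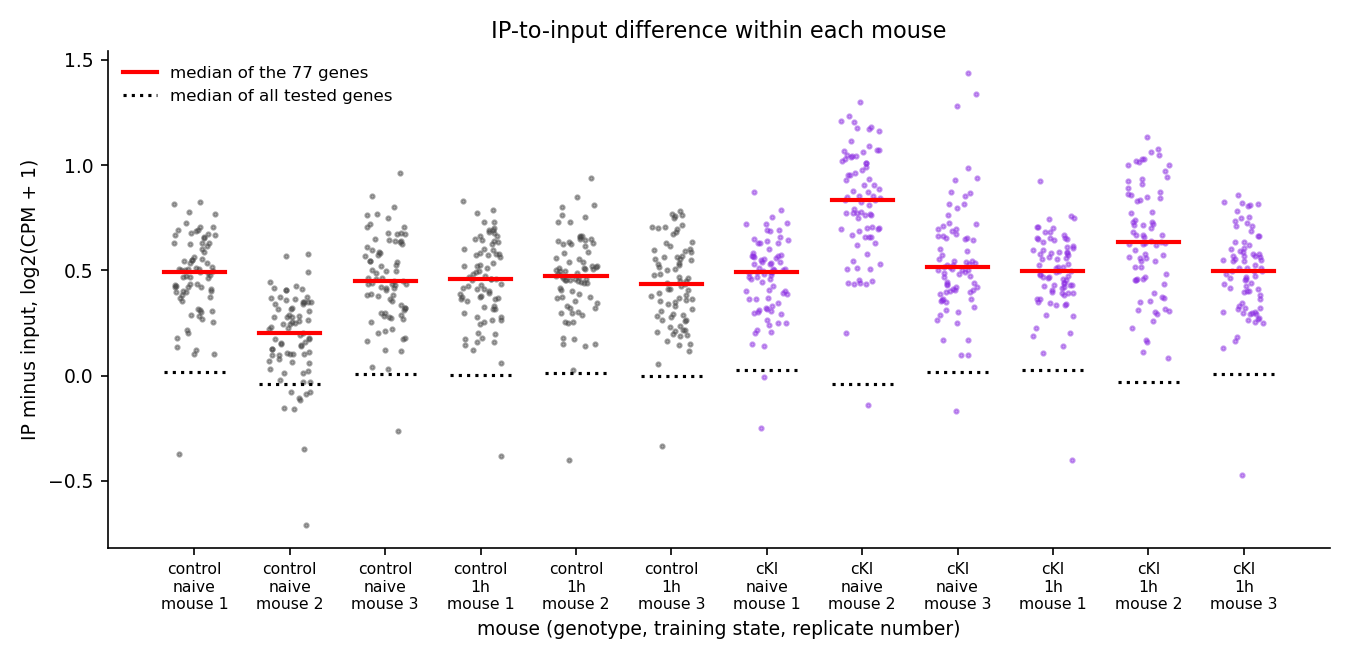
Points are the 77 genes in each of 12 mice, as the IP value minus the input value of that mouse in log2(CPM + 1), with the median of the genes (red) and of all tested genes (dotted). Naive control mouse 2 has the lowest red line (0.20) and naive cKI mouse 2 the highest (0.84).

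Within single mice and with TMM, 64 genes were higher in IP in 12 of 12 mice and 12 more in 11 of 12. By mouse, 65 to 77 of the 77 genes were higher in IP, against 8199 to 9010 of 17453 tested genes. The median difference over the genes was 0.43 to 0.63 on the log2(CPM + 1) scale in 10 mice. The other two stood apart. Naive control mouse 2 had 0.20, and its input had the highest summed level of the genes among inputs, 2034 CPM against 1569 to 1711 CPM in the other 11. Naive cKI mouse 2 had 0.84, and its IP library had the highest sum among IP libraries, 2860 CPM against 2340 to 2619 CPM. The same input had the highest sums of nuclear oxidative phosphorylation genes (9840 CPM, others up to 8171 CPM) and of cytosolic ribosomal protein genes (3957 CPM, others up to 3307 CPM), and the same IP library those of oxidative phosphorylation genes (13208 CPM, others up to 12434 CPM). By library totals the median difference was -0.07 in naive control mouse 2, where that of all tested genes was -0.23. It was 0.55 in naive cKI mouse 2 and 0.13 to 0.31 in the other 10 mice. Since these 2 mice stood apart, medians of the 77 genes for genotype and training are given with and without them. Values of single genes and of other lists are with all mice unless stated.

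Other genes of mitochondrial gene expression, from lists assembled for this comparison, mostly went the same way. All 5 mitoribosomal proteins outside the naming pattern were higher in IP (median 0.64), from Ptcd3 at 0.14 to Dap3, a small subunit GTP-binding protein, at 0.77. Of 24 ribosome assembly genes, 20 were higher and 1 lower. The highest were the helicase Ddx28 (0.84), the rRNA methyltransferase Mrm3 (0.75) and the GTPase Noa1 (0.64), and the lowest were Mpv17l2 (-0.47, called lower), Nsun4 (-0.03) and Trub2 (0.05), neither of which was called. Of 15 translation factors, 13 were higher, led by the elongation factors Tufm (0.69), Gfm1 (0.59) and Tsfm (0.57), and 2 were lower, Guf1 (-0.44) and the recycling factor Gfm2 (-0.18), with Mtrf1l the lowest of those called higher (0.16).

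For mitochondrial DNA and transcription, 7 of 10 genes were higher, with Tfb2m, the polymerase Polrmt and Tefm at 0.55, 0.53 and 0.52. Mterf1a was lower (-1.43), and Polg2 (-0.02) and Ssbp1 (0.06) were not called. Protein import had 21 of 23 genes higher and 1 lower, with Tomm34 (0.82), Tomm70a (0.79) and Timm23 (0.73) at the top and Timm21 (-0.55), Timm17b (0.08, not called) and Timm8a1 (0.13) at the bottom. Regulators of biogenesis split evenly, 5 higher and 5 lower. Esrra, Gabpb1 and Yy1 were higher (0.58, 0.48 and 0.48), and Tfeb, Gabpb2 and Ppargc1b were lower (-1.17, -1.10 and -0.42), as was Ppargc1a, the coactivator PGC-1α (-0.40).

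The chain that the mitochondrial ribosome helps to build draws on both genomes. For nuclear oxidative phosphorylation genes the median log2 fold change was 0.54, and 73 of 76 were called higher in IP and 1 lower. For cytosolic ribosomal proteins it was 0.04, and of 79 genes 30 were called higher and 25 lower. The 13 messages of the mitochondrial genome, which are not translated by the tagged cytosolic ribosomes, were all lower (median -4.64). Among 19 tested genes outside the set that share a divergent promoter with one of its genes, 13 were higher and 2 lower, with a median of 0.39. Sars2 had 0.42 and Twnk 0.18. The 2 that were lower were Helq, opposite Mrps18c (-0.57 against 0.63), and 2610507I01Rik, opposite Mrpl55 (-0.38 against 0.66).

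The knock-in was compared with control within each fraction. In inputs, as the mean of both training states, 1 of 77 genes was called lower and 0 higher, against 2% and 1.15% of 17232 tested genes. The called gene was Mrpl42, a large subunit protein. It held 16.9, 15.7 and 16.4 CPM in naive cKI inputs, 15.5, 15.7 and 14.5 CPM in conditioned cKI inputs, 17.5, 20.7 and 18.9 CPM in naive control inputs and 16.8, 17.9 and 17.9 CPM in conditioned control inputs. The genotypes touch, since the lowest control input, a conditioned one, lies below the highest cKI input. The log2 fold change was -0.19 (SE 0.05, adjusted p = 0.0416 with edgeR; 15.8 ± 0.84 against 18.3 ± 1.36 CPM, SD, n = 6 each). The call was kept without naive control input 1 or 2 (0.0301 and 0.0415, edgeR) and lost without any 1 of the other 10 inputs (adjusted p from 0.0527 to 0.122), without both naive mice numbered 2 (0.0742) and with lane as a covariate (0.232).

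The DESeq2 Wald test called 4 genes lower, Mrpl42, Mrpl24, Mrpl33 and Mrpl20. The shares of all genes called that are printed with the comparisons are those of edgeR and do not apply to the Wald test. The other genes leaned the same way in inputs. Of the 77, 74 had a negative value (median log2 fold change -0.09, against 0.00 over all genes), and 17 had an unadjusted p under 0.05. Without the naive mice numbered 2 of both genotypes, 55 were negative and the median was -0.04, and the gene called lower was Mrpl24 (-0.18, adjusted p = 0.0282 with edgeR) and no longer Mrpl42. Mrpl24 held 22.6 to 25.1 CPM in cKI inputs and 26.1 to 34.2 CPM in control inputs, with no overlap (adjusted p = 0.0555 with all mice, edgeR). Mrpl20, required early in large subunit assembly in bacteria, held 18.2 to 19.6 CPM in cKI inputs and 19.6 to 26.2 CPM in control inputs (-0.20, SE 0.06, adjusted p = 0.0714 with edgeR).

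All 6 oligodendrocyte markers were lower in cKI inputs (median -0.31). They summed to 3347 to 4103 CPM in cKI and 3760 to 5373 CPM in control inputs, and none was at 0 in an input. Other cell types differed too. Inhibitory neuron markers summed to 685 to 755 CPM in cKI and 759 to 845 CPM in control inputs, without overlap. Sums were 1944 to 2083 against 2077 to 2205 CPM for astrocytes and 227 to 272 against 261 to 334 CPM for oligodendrocyte precursors. Microglia markers leaned the other way (253 to 316 against 240 to 283 CPM). All cKI inputs were sequenced in lane 4 and 4 of the 6 control inputs in lane 5. The part of the cell markers or of lane in the gene values was not tested beyond the fit with lane. In that fit the median of the 77 genes was -0.17 and 0 were called. The lane term of that fit rests on naive control inputs 1 and 2 (lane 4) against 3 (lane 5), so it separates lane from genotype poorly. Of nuclear oxidative phosphorylation genes 8 of 76 were lower in cKI inputs and 0 higher, among them Sdhb (-0.29), Atp5l (-0.28) and Uqcrh (-0.28). Esrra, a nuclear receptor that drives mitochondrial genes, was also lower (-0.19, adjusted p = 0.0266 with edgeR). These oxidative phosphorylation and Esrra results are with all mice and are not given here without the naive mice numbered 2 or with lane. Naive control input 2 had the highest oxidative phosphorylation sum among inputs (9840 CPM, others up to 8171 CPM). Its Esrra level was 65.5 CPM, against 54.0 to 57.8 CPM in the other control inputs and 45.7 to 51.6 CPM in cKI inputs.

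By training state, 0 of 77 genes were called between genotypes in naive inputs by edgeR, against 0.302% of all genes higher and 0.557% lower. The median was -0.12 with all mice and -0.02 without the 2 mice. The smallest p belonged to Mrpl45, with 29.3, 25.3 and 27.4 CPM in cKI and 31.4, 35.0 and 31.8 CPM in control (-0.23, SE 0.06, adjusted p = 0.0905 with edgeR). All 3 control inputs lay above the cKI inputs. Mrpl33 (-1.54, SE 0.42, adjusted p = 0.108) and Mrpl24 (-0.27, SE 0.08, adjusted p = 0.115, both edgeR) followed. The DESeq2 Wald test called Mrpl45 and Mrpl33 lower in naive inputs (adjusted p = 0.0419 and 0.0196). In conditioned mice 0 were called, against 0.0696% higher and 0.197% lower, with a median of -0.05 with or without the 2 mice. Mrpl42, Mrpl36 and Mrpl20 had the smallest p there, with log2 fold changes of -0.19, -0.18 and -0.19 and adjusted p from 0.364 to 0.505 (edgeR).

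**Figure D4:**
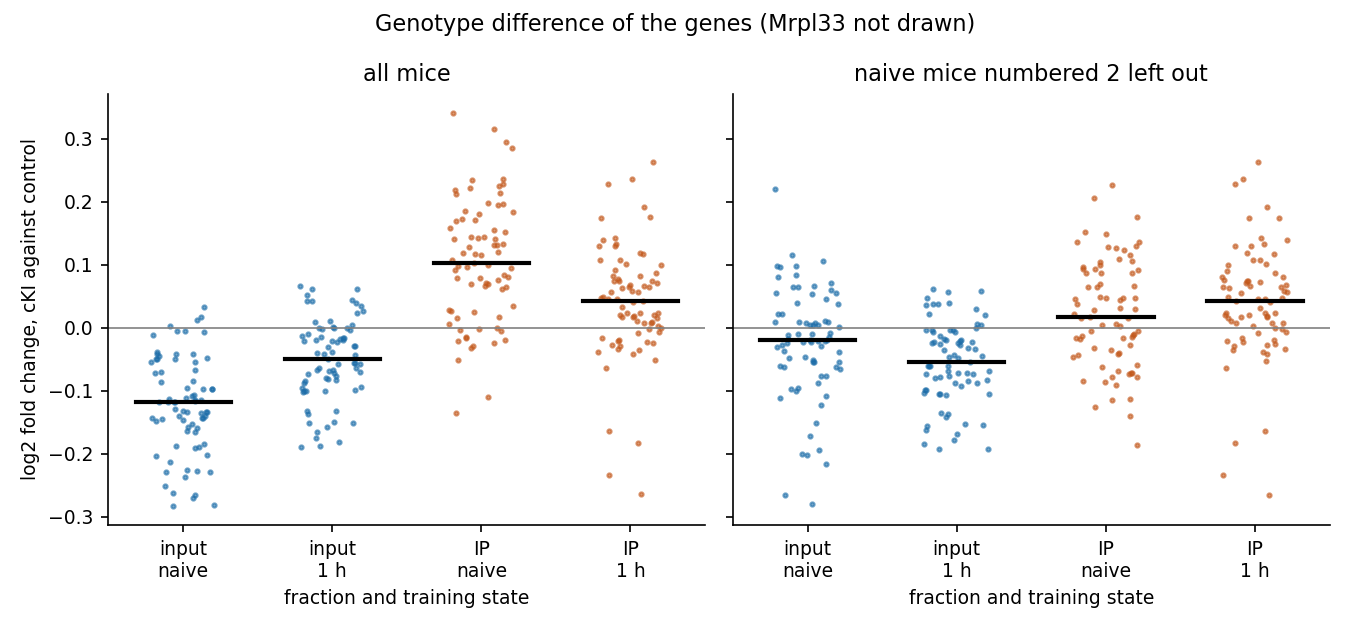
Points are log2 fold changes of the genes in cKI against control, by fraction and training state, and lines are the medians of all 77 genes; Mrpl33 is left out of the points for its wide spread. With all mice the naive medians were -0.12 in input and 0.10 in IP, and without the naive mice numbered 2 they were -0.02 and 0.02.

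In IP the values leaned the other way, and 0 of 77 genes were called as the mean of both training states (all genes: 0.656% higher, 1.04% lower). Of the 77 genes, 64 were higher in cKI (median 0.08), 13 had an unadjusted p under 0.05, and the DESeq2 Wald test called 1 gene lower, Mrpl20 (adjusted p = 0.0306). Without the 2 naive mice 57 were higher and the median was 0.04. All control IP libraries were sequenced in lane 6 and 4 of the 6 cKI IP libraries in lane 5, and with lane as a covariate the median was 0.11 and 0 were called. Mrpl20 held 26.0 to 31.3 CPM in cKI IP libraries and 30.6 to 35.1 CPM in control ones (-0.19, SE 0.05, adjusted p = 0.0937 with edgeR), so that 1 cKI library reached into the control range. Mrpl20 thus had a negative value in both fractions. Mrpl10, which holds the stalk of the large subunit, and Mrps34 had 0.11 and 0.16 (adjusted p = 0.186 for both, edgeR).

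In naive mice 0 genes were called in IP by edgeR, against 1.2% higher and 2.5% lower among all genes, with 12 at an unadjusted p under 0.05. Mrpl53 held 29.0, 33.3 and 29.4 CPM in cKI and 26.8, 22.8 and 24.1 CPM in control (0.31, SE 0.10, adjusted p = 0.0891 with edgeR, and 0.0445 with the DESeq2 Wald test). All cKI libraries lay above all controls for this gene. Mrps26 and Mrps34 had 0.29 and 0.23 (adjusted p = 0.113 and 0.140, edgeR). Without the naive mice numbered 2, Mrpl53, Mrps26 and Mrps34 had 0.20, 0.17 and 0.15 (adjusted p = 0.502, 0.556 and 0.557 in that order, edgeR). The median of the 77 genes was 0.10, and 0.02 without the 2 mice. All 3 naive cKI IP libraries were in lane 5 and all 3 naive control ones in lane 6, so that genotype and lane cannot be told apart among them. The fit with lane, whose lane term rests on the conditioned cKI IP libraries, gave a median of 0.15 and called 0. In conditioned mice 0 were called, against 0.0394% higher and 0.0197% lower, and the median was 0.04 with or without the 2 mice. Mrpl20, Mrps27 and Mrpl36 had the smallest p there (-0.26, 0.26 and -0.23, adjusted p from 0.494 to 0.820, edgeR). Granule cell markers summed to 638 to 950 CPM in naive cKI and 157 to 692 CPM in naive control IP libraries, and CA1 pyramidal cell markers to 1173 to 1558 CPM and 1527 to 2094 CPM, and the part of this in the gene values was not tested.

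**Figure D5:**
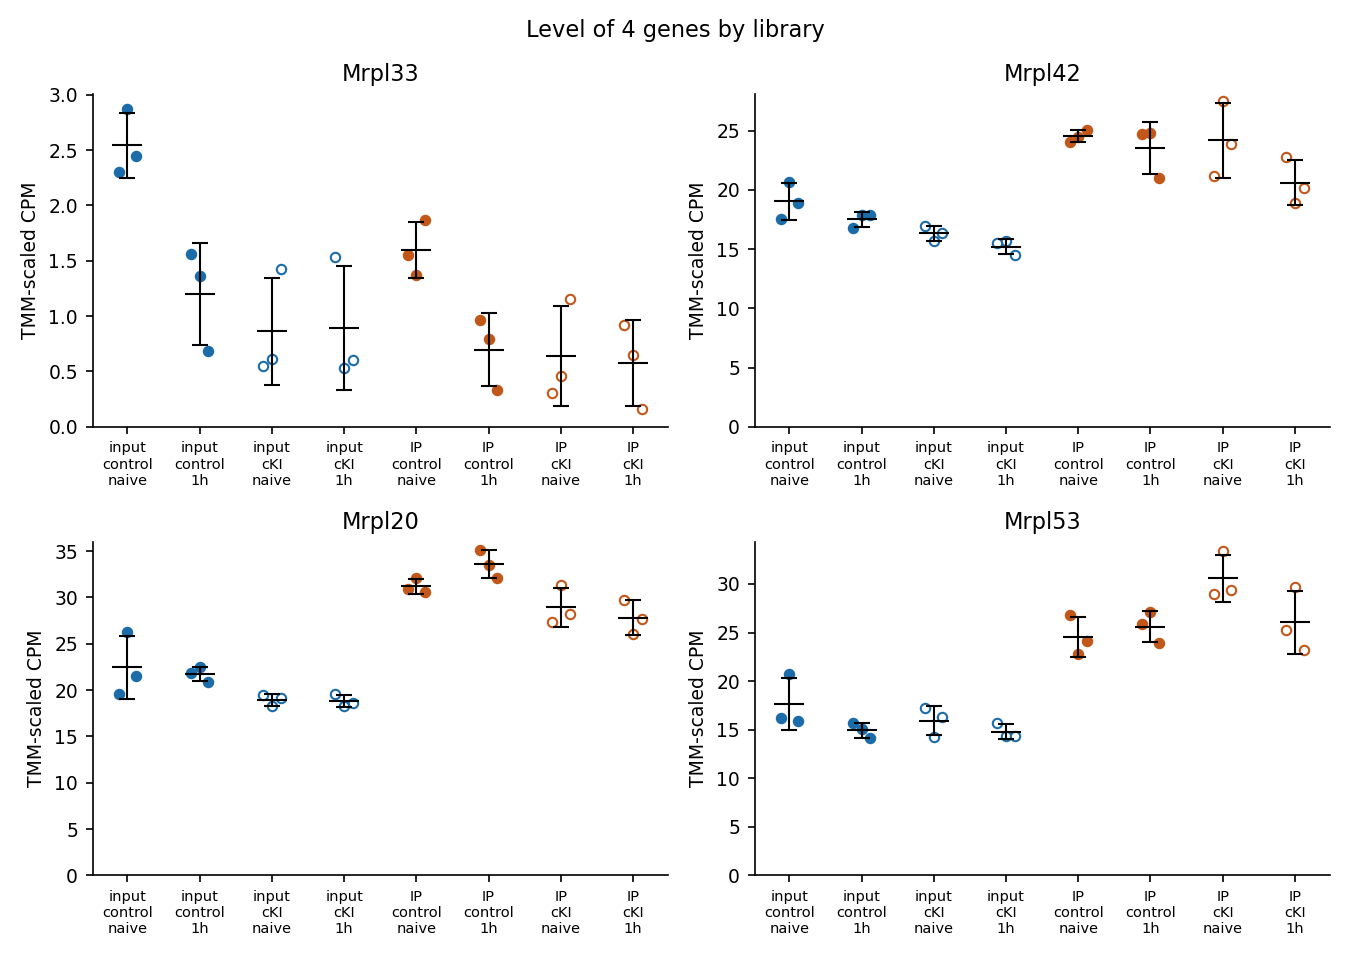
Points are TMM-scaled CPM of 4 genes in each library (filled for control, open for cKI; blue for input, orange for IP), with the mean and SD of each group of 3. Mrpl33 is highest in the naive control inputs (2.31 to 2.87 CPM), while Mrpl42, Mrpl20 and Mrpl53 are higher in IP than in input in both genotypes.

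One regulator of these genes differed with genotype in IP. Ppargc1a, whose product coactivates NRF1, GABPA and Esrra, held 31.8, 24.7 and 30.1 CPM in naive cKI and 46.1, 54.4 and 54.3 CPM in naive control IP libraries (log2 fold change -0.84, SE 0.12, adjusted p = 0.00620 with edgeR). The groups did not overlap. In conditioned mice it held 31.3, 26.7 and 36.0 CPM in cKI and 33.0, 38.6 and 37.0 CPM in control (-0.20, SE 0.12, adjusted p = 0.944 with edgeR). As the mean of both states Ppargc1a was lower in cKI (-0.52, adjusted p = 0.0126), but not without the naive mice numbered 2 (-0.44, adjusted p = 0.0612) or with lane as a covariate (-0.51, adjusted p = 0.600, all edgeR). In naive mice the call was also lost without those mice (-0.69, adjusted p = 0.115) and with lane (-0.83, adjusted p = 0.728, both edgeR).

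The ratio of IP to input was compared between genotypes in 1 model over all libraries. None of the 77 genes was called, 0 of 77, against 0.0115% of all genes in each direction. All 77 had a higher ratio in cKI, against 54.1% of all tested genes, with a median difference of 0.18 and 36 genes at an unadjusted p under 0.05. The share of all genes at that unadjusted p is not given here, and the 0.0115% is at the adjusted threshold. Mrps28, a small subunit protein, had the smallest p (0.47, SE 0.11, adjusted p = 0.218 with edgeR, 0.0617 with the DESeq2 Wald test). Its adjusted p reached 0.880 under the other alternatives and ran from 0.0852 to 0.600 when each mouse was left out (edgeR). It held 5.29 to 6.19 CPM in cKI inputs against 5.96 to 7.52 CPM in control inputs, and 8.80 to 11.8 CPM in cKI IP libraries against 7.76 to 9.41 CPM in control ones. Mrpl10 and Mrpl18 followed, with 0.21 and 0.31 (adjusted p = 0.229 and 0.245, edgeR). Without the naive mice numbered 2, 63 of the 77 genes had a higher ratio in cKI and the median was 0.07. With lane as a covariate it was 0.30 with 73 genes higher and 0 called.

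Fear conditioning left 0 of the 77 genes called in each of its comparisons. In control IP libraries, all sequenced in lane 6, the median was -0.01 with or without the naive mice numbered 2, and 2 genes had an unadjusted p under 0.05 (all genes: 0.158% higher, 0.171% lower). Mrps35, a small subunit protein, held 23.3, 23.03 and 20.6 CPM in naive and 20.1, 17.2 and 18.3 CPM in conditioned mice, without overlap (-0.27, SE 0.09, adjusted p = 0.241 with edgeR). Mrpl33 and Mrps27 had -1.17 and -0.21 (adjusted p = 0.457 and 0.515, edgeR). In cKI IP libraries the median was -0.07 and 65 genes were lower 1 h after conditioning, 10 with an unadjusted p under 0.05 (all genes: 0.0394% higher, 0.00656% lower). Without the naive mice numbered 2 the median was 0.00 and 38 were lower. Granule cell markers summed to 638 to 950 CPM in naive and 163 to 712 CPM in conditioned cKI IP libraries, and CA1 markers to 1173 to 1558 CPM and 1425 to 1935 CPM. Of these libraries, all 3 naive ones and 1 conditioned one were in lane 5, and with lane as a covariate the median was -0.13. The part of the cell markers was not tested. Mrpl36 and Mrpl2 had the smallest p among cKI IP libraries (-0.32 and -0.24, adjusted p = 0.265 and 0.305), followed by Mrps16 (-0.28, adjusted p = 0.329, all edgeR). Without the naive mice numbered 2, Mrpl36, Mrpl2 and Mrps16 had -0.19, -0.16 and -0.13 (adjusted p = 0.482, 0.549 and 0.653 in that order, edgeR).

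In control inputs the median after conditioning was -0.08, and 68 of 77 genes were lower, 11 with an unadjusted p under 0.05 (all genes: 0.412% higher, 0.325% lower). Without the naive mice numbered 2 the median was -0.01 and 41 were lower, and with lane as a covariate the median was 0.00. All conditioned control inputs were in lane 5. The lane term rests on naive control inputs 1 and 2 (lane 4) against 3 (lane 5), so it separates lane from training poorly. Mrpl27, a counterpart of bacterial L27, was highest in naive control mouse 2. It held 15.9, 20.1 and 14.99 CPM in naive and 14.2, 13.7 and 14.4 CPM in conditioned control inputs (-0.25, SE 0.09, adjusted p = 0.280 with edgeR). Mrpl18 and Mrpl33 had -0.18 and -1.07 (adjusted p = 0.307 and 0.325, edgeR). Oligodendrocyte markers were lower in conditioned than naive control inputs for 5 of 6 genes, with sums of 3760 to 4313 CPM against 4963 to 5373 CPM, and their part in the gene values was not tested. In cKI inputs, all from lane 4, the median was 0.00 with 37 genes higher, and without the naive mice numbered 2 it was -0.04 with 22 higher. With all mice 1 gene had an unadjusted p under 0.05 (all genes: 0.0058% higher, 0.0116% lower). Mrpl9, Mrps24 and Mrpl3 had the smallest p (0.16, -0.15 and 0.07, adjusted p from 0.943 to 0.984, edgeR).

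Tests of whether conditioning acted differently in the 2 genotypes called 0 of 77 genes in IP (median -0.07, 2 with an unadjusted p under 0.05; all genes: 0.00656% in each direction) and 0 in input (median 0.06, 0 with an unadjusted p under 0.05; all genes: 0.0116% higher, 0.0232% lower). Without the naive mice numbered 2 these medians were 0.02 and -0.04, and with lane as a covariate -0.11 and -0.02. Mrpl36, Mrps27 and Mrpl44 had the smallest p in IP (-0.30, 0.32 and -0.23), and Mrpl45, Mrpl9 and Mrpl33 in input (0.17, 0.20 and 1.13), with adjusted p of 0.504 or more (edgeR). The ratio of IP to input differed with conditioning for 0 of 77 genes (median 0.01 with or without the naive mice numbered 2 and -0.05 with lane as a covariate; all genes: 0.00573% higher, 0% lower), where Mrps35, Mrps30 and Mrpl35 had the smallest p (-0.20, -0.19 and -0.11, each with an adjusted p of 1.00, edgeR).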

How the data were processed

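RNA was measured by poly(A) RNA-seq in 12 input and 12 IP libraries of 12 mice. The authors deposited raw counts per gene; per the submitters' processing notes cutadapt, Bowtie and DESeq2 were used, without their roles. What counted the reads, on which genome build and with which strand setting, is not given in the sources used here, so a gene overlapping another on the opposite strand may share its reads.

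These counts were tested with edgeR 4.0.16 in R 4.3.3 (filterByExpr, TMM, 1 mean per group, robust quasi-likelihood test, Benjamini-Hochberg adjustment over all tested genes, threshold 0.05). IP against input and ratio comparisons used all 24 libraries, others the 12 libraries of 1 fraction. The script was checked on simulated data. CPM are scaled by TMM, and per-mouse differences use log2(CPM + 1). Within 1 fraction, p-values measure the spread between mice of 1 study. In IP against input and the ratio comparisons, IP and input of a mouse were fitted as separate libraries. There p-values measure the spread between libraries within groups, without the pairing by mouse. Counts at an unadjusted p under 0.05 have no share of all genes beside them, since the printed shares of genes called are at the adjusted threshold. The named genes were, for IP against input, the 8 highest, the 8 lowest and those not higher; for other comparisons called genes or the 3 smallest p; 8 fixed genes; and 3 highest and lowest of each other list. Mrpl24 and Mrpl20 in inputs, the divergent partners and the printed promoters were picked after their values were seen.

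The members and the 26 lists (398 genes) were chosen with earlier results of these data known. IP and input of 1 mouse share its number in the labels (correlation of deviations from group means -0.09 to 0.44, median 0.13). Alternatives were DESeq2 1.42.0 size factors and Wald test, no filter, lane, replicate or mouse as a term, a mean CPM of 5 or more and leaving out each mouse or library; library totals and leaving out both naive mice numbered 2 were added after seeing the data. Protein sequences were not analysed here.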

Additional observations from a re-analysis of the deposited data

How the results depend on the processing

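In IP against input, 59 to 77 genes were called under the alternatives and 76 or 77 when each mouse was left out. Mrpl33 changed sign with lane as a covariate (0.20), as did Mrpl17 (-0.16), Mrps5 (-0.079), Mrps24 (-0.087), Mrpl9 (-0.061), Mrps6 (-0.050) and Mrpl52 (-0.021) with library totals, where Mrpl17 and Mrps5 were called lower. The median IP minus input difference over mice was 0.49 with TMM and 0.20 with CPM from total counts. All tested genes also moved down under that scaling, but by less than the 77 genes. In naive cKI mouse 1 the 77 genes went from 0.49 to 0.20 and all tested genes from 0.03 to -0.19. The distance of the 77 genes from all tested genes was 0.39 with total counts. For the genotype in inputs, the count of called genes was 1 in the fit reported, 2 with DESeq2 size factors, 4 with the DESeq2 Wald test, 3 with no filter, 0 with lane as a covariate and 0 with library totals, and 0 to 3 when each library was left out. In naive inputs it was 0 in the fit reported, 2 with the Wald test (Mrpl45 and Mrpl33) and 0 to 1 when each library was left out. In IP, the Wald test called 1 gene as the mean of both states and 1 in naive mice, where edgeR called 0. The causes were not tested. In the other comparisons of genotype, training, interaction and ratio, 0 genes were called under all alternatives run. With the replicate number as a block the count for the genotype in inputs was 0 and no other count of called genes changed side. Same-numbered libraries of other groups correlated at -0.30 to 0.52 in IP and -0.22 to 0.15 in input, against -0.49 to 0.38 for other numbers. IP and input of 1 mouse also reached only -0.09 to 0.44, so these values cannot decide whether the numbers pair the mice. The mouse as a block left 76 genes higher and 1 lower in IP against input. With promoters cut to the 250 bases before the start, the ETS motif was found for 18 of 68 genes, against 13.5% of tested genes. Depth limits Mrpl33 most, at 0.159 CPM in its lowest library.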
